A study of Mus musculus with 4 samples.

Results

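Mural cells of the neonatal mouse sciatic nerve, the pericytes and vascular smooth muscle that wrap its vessels, were profiled by Drop-seq, a droplet method that counts each transcript by a unique molecular identifier (UMI). They were chosen by measured values. Among barcodes with at least 200 genes and at most 10% mitochondrial UMIs, a cell was taken when Rgs5, Kcnj8, Abcc9, Notch3, Higd1b, Myh11 and Cnn1 together gave at least 4 UMIs and Pecam1, Pdgfra, Sox10 and Ptprc gave 0. This took 469 of the 8042 filtered neonatal cells, out of 12268 filtered cells and 13200 barcodes in the series. All libraries came from wildtype CD1 mice. The neonatal nerves were prepared in 2 ways, as a library of postnatal day 3 to 4 sorted by FACS for Hoechst-high, propidium iodide-negative cells and a library of postnatal day 2 to 3 cleared with myelin removal beads. Bead-cleared libraries of uninjured adult nerve and of the distal segment of adult nerve at 3 days post-injury (3 DPI), after resection, were searched by the same rule. Each preparation was 1 library, and neither the labels nor the methods gave the number of animals behind it. No difference below therefore has a replicate check, and no p-value is given.

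Pericytes sit within the basement membrane of capillaries and contact the endothelium, while vascular smooth muscle forms contractile layers around arterioles and larger vessels. Endothelial cells recruit both through PDGF-B, which acts on PDGFRB, and through Notch ligands, which act on NOTCH3. Both cell types set vessel tone with actin and smooth muscle myosin, and potassium channels such as KCNJ8 with its partner ABCC9 tune their membrane potential.

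Mural cells made up a like share of both neonatal preparations. The FACS library held 132 among 2306 filtered cells (5.72%, exact Clopper-Pearson 95% interval 4.81% to 6.75%). The bead library held 337 among 5736 (5.88%, 5.28% to 6.52%), and the adult libraries held 175 of 1945 uninjured (9.0%, 7.76% to 10.4%) and 83 of 2281 3 DPI cells (3.64%, 2.91% to 4.49%). The 2 neonatal intervals overlapped and the 2 adult ones did not, but a preparation can change how many cells of a type it yields, and condition and library cannot be told apart with 1 library each. The libraries held 4513814 to 8123103 UMIs in all. Median depth per mural cell was 2079 UMIs in the FACS and 1226 in the bead library, against 1271 in the uninjured and 2520 in the 3 DPI library. No mural cell barcode was a mural cell of another library, and 8 barcodes of any kind occurred in more than 1 library. All intervals here are 95% intervals and cover counting error only.

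Rgs5, a regulator of G-protein signalling, was the gene that most often placed a cell among the mural cells. It was found in 89.4% of FACS and 85.2% of bead mural cells. Kcnj8 was found in 58.3% and 45.4%, Abcc9 in 46.2% and 27.6%, Notch3 in 47.7% and 38.6% and Higd1b in 35.6% and 31.5%. Of the smooth muscle genes of the rule, Myh11, the smooth muscle myosin heavy chain, was found in 39.4% and 53.1%, and Cnn1, the actin-binding protein calponin, in 12.1% and 18.1%. These shares describe what the rule selected, and Schwann cells, with fewer than 4 such UMIs by construction, carried each of the 7 genes in at most 4.19% (Rgs5, FACS). Each cell carried a median of 21 (FACS) and 11 (bead) UMIs of the 7 genes. At the threshold, 18 FACS cells with 3 of these UMIs were left out and 5 with 4 were taken, with Acta2 at 27.0 and 435 CPM (the UMIs of a gene summed over cells, scaled to a total of 1000000 UMIs). In the bead library 21 cells with 3 were left out and 15 with 4 were taken, with Acta2 at 4187 and 3160 CPM. The rule also set aside 20 FACS and 57 bead cells for an excluding marker, mostly Pdgfra in the FACS cells (17) and Pecam1 in the bead cells (39).

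Acta2, Mylk and Des, 3 smooth muscle genes that the rule did not use, were found in the mural cells far more often than in Schwann cells, which should lack them. The Schwann cells for this comparison carried Sox10, lacked Pecam1, Pdgfra and Ptprc, had fewer than 4 UMIs of the rule genes and had median depths of 2259 and 1157 UMIs in the FACS and bead libraries, close to the 2079 and 1226 of the mural cells. Acta2, smooth muscle actin, was found in 61.4% of FACS mural cells (52.5% to 69.7%) and 77.4% of bead mural cells (72.6% to 81.8%), against 3.09% and 3.52% of Schwann cells. Mylk, the kinase that starts contraction, was found in 71.2% and 67.1%, against 1.10% in both sets of Schwann cells. Des, the intermediate filament desmin, was found in 43.2% and 23.4%, against 0% (0 of 453 Schwann cells, which allows up to 0.662% at 3 counts of the total) and 0.157%. The endothelial gene Cdh5 gave 0 UMIs in mural cells of both libraries. The plot of detection by library sets these shares beside those of the rule genes and of the adult mural cells.

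**Figure D1:**
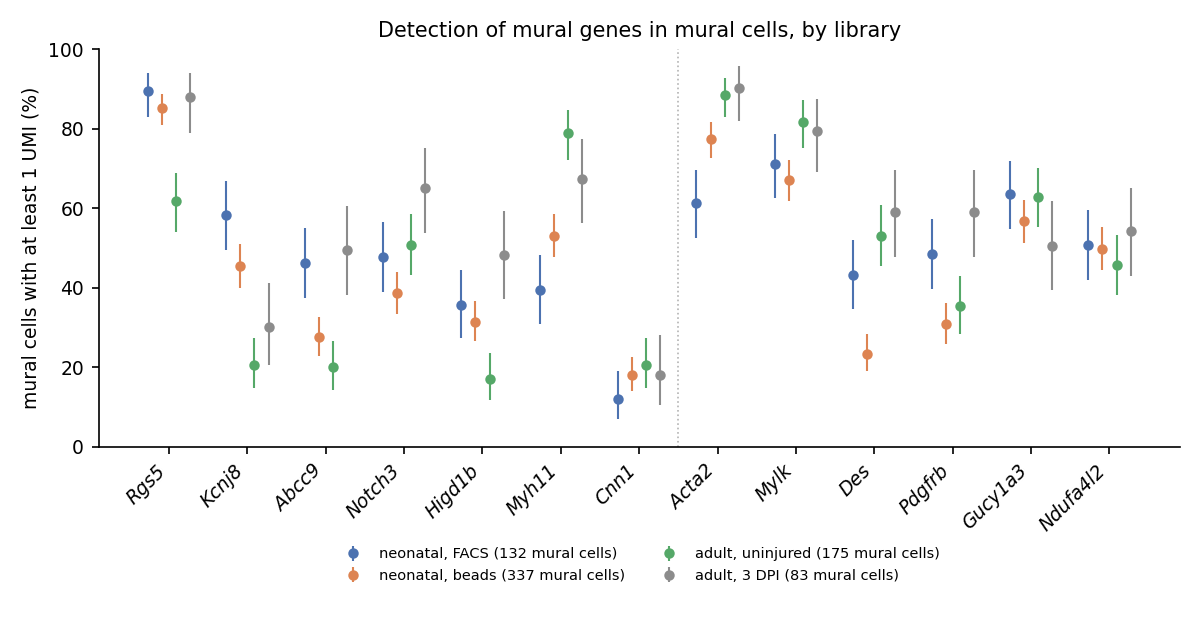
Share of mural cells with at least 1 UMI (y axis, percent) for 13 genes (x axis) in the 4 libraries. Points are shares and bars exact 95% intervals. Genes left of the dotted line belong to the selection rule. Acta2 ranged from 61.4% in the FACS library to 90.4% at 3 DPI.

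Transcripts of other cell types were present in the mural cells and differed between the preparations. Summed over the Schwann list, 13 and 14 of the 14 genes found in the tables had a UMI in mural cells, at 2677 CPM in the FACS and 1042 CPM in the bead mural cells, against 35754 and 11308 CPM in all other cells. Mesenchymal genes reached 30195 CPM in the FACS and 6735 CPM in the bead mural cells, erythroid genes 6.15 and 2598 CPM, endothelial genes 452 and 680 CPM and immune genes 24.6 and 18.3 CPM. A few cells carried much of this. In 12 FACS and 8 bead mural cells, 1 of these lists gave more than 5% of the UMIs, up to 23.8% mesenchymal UMIs in a FACS cell and 69.3% erythroid UMIs in a bead cell. Those 12 FACS cells held 90.0% of all Col1a1 UMIs of the FACS mural cells and 92.9% of those of Dcn, but 0.0951% of those of Acta2. Results that rest on these cells are given with and without them, as an alternative chosen after seeing the data. The mesenchymal list itself holds Col1a1, Col1a2, Col3a1, Dcn, Lum and Ogn. Whether these cells were mixed droplets was not tested.

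To find genes that set the mural cells apart, their summed CPM was divided by that of all other cells of the same library. A gene was called higher when the ratio was at least 3 in both libraries with at least 20 UMIs in the mural cells of each, and lower when it was at most 1 in 3 with at least 20 UMIs in the other cells of each. Among all genes, 202 of 3128 were called higher (6.46%). Since the cells were chosen on mural genes, and genes high in mural cells pass a filter on mural UMIs more readily, these ratios describe the cells and test nothing.

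The contractile apparatus led. Of 42 contractile genes outside the rule, 30 passed the filter and 23 were called higher, against the 6.46% of all genes. The median log2 ratio of the list was 3.56, against 0.08 for all genes tested. Acta2 stood at 3237 CPM in FACS and 7744 CPM in bead mural cells, 127-fold (105 to 155) and 54.6-fold (50.9 to 58.6) above other cells. Tagln, an actin-bundling protein of smooth muscle, stood at 1354 and 2626 CPM, or 50.7-fold and 45.2-fold above. The myosin light chain Myl9 was 18.0-fold and 25.1-fold higher and its kinase Mylk 61.7-fold and 33.1-fold. Tropomyosins followed, with Tpm2 31.2-fold and 34.8-fold and the more widely expressed Tpm1 8.10-fold and 11.0-fold higher. Both ratios of each of these genes pointed the same way, as the call requires, and Acta2 was the most abundant of them in the bead cells.

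Contractile genes of lower CPM stood apart from other cells as well. Lmod1, which nucleates actin filaments in smooth muscle, was 334-fold higher in the FACS library, where other cells held 3 UMIs (interval 110 to 1658), and 73.0-fold in the bead library. Map3k7cl was 116-fold and 44.3-fold higher, and Ppp1r14a, an inhibitor of myosin phosphatase, 72.6-fold and 25.3-fold. Actg2, the actin of enteric smooth muscle, was 55.5-fold and 40.7-fold higher. The muscle actins were not matched by their relatives in the general cytoskeleton. Of 12 such paralogs that passed the filter, among them Actb at 1.97-fold and 1.91-fold and Myh9 at 2.84-fold and 2.37-fold, 1 was called higher, the calponin Cnn2 (8.26-fold and 6.75-fold). Smtn, named for smooth muscle, was at 0.43 and 0.80 times the level of other cells, and Csrp1 at 1.39-fold and 1.88-fold. Actg1 was counted at 16 and 8 UMIs in the mural cells. How the authors' counting divided reads among near-identical actin copies is not stated in the labels or methods, and values of single actin genes are uncertain.

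Promoters of these genes were read for the CArG box, the DNA motif bound by serum response factor (SRF), which drives smooth muscle genes. The sequences are those of RefSeq on GRCm38.p6 and cover the 250 bases before each start. Matches on both strands were counted. Of the 23 contractile genes called higher, 19 had an entry, with 24 promoters in all. A CArG box was found in 2 of these 24 (8.33%), those of Myl9 and Filip1l, against 482 of all 32851 promoters (1.47%). With 1 C or G allowed in the core, it was found in 4 of 24 (16.7%), those of Acta2, Myl9, Pcp4l1 and Pdlim3, against 2380 of all (7.24%). Of the 18 pericyte genes called higher, 7 had an entry, and none of their 11 promoters held either form. A match is a description of letters and not a site shown to be bound. The 3 promoters are printed because they show where the motif lies in genes that were high in these cells. Letters are written 5′ to 3′ on the strand of the gene and end at the last base before its start, and the capitals mark the strict CArG box in Myl9 and Filip1l and the form with 1 C or G in the core in Acta2, which held no strict box here. The match of Myl9 to the looser form is left in lower case. The marked stretches begin 84 and 34 bases before the start in Acta2 (chr19:34255374-34255623, minus strand), 161 bases before in Myl9 (chr2:156775214-156775463, plus strand) and 62 bases before in Filip1l (chr16:57548992-57549241, plus strand).
Acta2: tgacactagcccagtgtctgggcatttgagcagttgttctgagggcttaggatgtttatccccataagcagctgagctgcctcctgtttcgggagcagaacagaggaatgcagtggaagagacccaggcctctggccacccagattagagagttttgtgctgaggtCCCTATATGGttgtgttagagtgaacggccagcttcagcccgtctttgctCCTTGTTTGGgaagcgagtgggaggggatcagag
Myl9: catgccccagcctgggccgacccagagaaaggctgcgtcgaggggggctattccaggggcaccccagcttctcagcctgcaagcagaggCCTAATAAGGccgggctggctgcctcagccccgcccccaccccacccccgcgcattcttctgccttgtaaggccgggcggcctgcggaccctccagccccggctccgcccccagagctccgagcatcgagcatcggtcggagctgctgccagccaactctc
Filip1l: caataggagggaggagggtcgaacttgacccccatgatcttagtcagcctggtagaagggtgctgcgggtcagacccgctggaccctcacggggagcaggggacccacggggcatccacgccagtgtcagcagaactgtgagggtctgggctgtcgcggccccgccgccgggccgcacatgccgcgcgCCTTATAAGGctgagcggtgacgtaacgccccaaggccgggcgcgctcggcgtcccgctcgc

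Pericyte genes outside the rule behaved alike. Of 35 listed, 24 passed the filter and 18 were called higher (6.46% of all genes), with a median log2 ratio of 2.41. With every cell thinned to 500 UMIs, 4 were still called, over the 122 FACS and 312 bead mural cells that had at least 500 UMIs. Pdgfrb, the receptor for PDGF-B, stood at 348 CPM in FACS and 288 CPM in bead mural cells and was 12.2-fold (9.44 to 15.8) and 18.6-fold (14.4 to 24.1) higher than in other cells. A pair of subunits of the respiratory chain had some of the highest ratios of the list, Ndufa4l2 at 94.6-fold and 53.2-fold and Cox4i2 at 34.8-fold in the bead library. In the FACS library other cells held 2 Cox4i2 UMIs, which gave 443-fold (117 to 3738). The transcription factors Ebf1 (4.66-fold and 4.61-fold) and Tbx2 (5.66-fold and 5.32-fold) and the metalloreductase Steap4 (10.9-fold and 15.7-fold) were also called. Some genes often used to mark pericytes were not. Cspg4, the NG2 proteoglycan, was 1.91-fold and 1.33-fold and Mcam 2.53-fold and 1.31-fold above other cells, while Art3 was at 0.42 and 0.34 times their level.

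Receptors and enzymes that set vessel tone were mostly high. Of 47 genes for vasoactive signalling, 14 passed the filter and 10 were called higher (6.46% of all genes). Both subunits of soluble guanylate cyclase, the receptor for nitric oxide, were among them. Gucy1a3 stood at 643 and 835 CPM (28.6-fold and 26.9-fold) and Gucy1b3 at 342 and 427 CPM (42.4-fold and 28.2-fold). Their downstream kinase Prkg1 was 31.7-fold and 22.3-fold higher, and Pde5a, which breaks down cyclic GMP, 5.57-fold and 6.45-fold. Among receptors, Ednra for endothelin was 8.61-fold and 14-fold higher, Agtr1a for angiotensin II 4.12-fold and 5.69-fold and the adrenergic Adra2a 4.02-fold and 5.0-fold. Rgs4, a relative of Rgs5, was 38.1-fold and 34.8-fold higher. Against this, 3 of the 28 listed genes with enough UMIs in other cells were called lower (all genes 491 of 11396, 4.31%), namely Pde4d, Lpar1 (0.14 and 0.11 times) and the other endothelin receptor Ednrb (0.073 and 0.082 times).

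Genes of Notch and of vascular growth factors gave a mixed picture by role. In the Notch list 3 of the 5 genes that passed were called higher (6.46% of all genes). All 3 act downstream of the receptor, Heyl (24.1-fold and 19.6-fold), Nrarp (4.84-fold and 8.38-fold) and Hes1 (3.69-fold and 4.08-fold). The ligand Jag1 was 2.49-fold and 2.14-fold above other cells. In the PDGF list Pdgfrb was called higher, while the ligand Pdgfa was 2.78-fold and 2.41-fold above other cells and Pdgfb gave 3 and 9 UMIs in all. Both angiopoietins, which act on the endothelial receptor TEK, were called higher. Angpt1 stood at 157 and 63.0 CPM (11.9-fold and 15.6-fold) and Angpt2 at 132 and 144 CPM (5.52-fold and 6.08-fold). The receptor genes Tek, Tie1, Kdr and Nrp2 were called lower. In the list for TGF-beta and BMP, 6 of 14 were called higher (6.46% of all genes). They were the ligands Bmp5 (64.3-fold and 34.3-fold), Bmp2 (15.2-fold and 7.23-fold), Inhba (12-fold and 13.4-fold) and Tgfb2 (3.56-fold and 7.84-fold) and the BMP response genes Id4 (6.55-fold and 6.42-fold) and Id3 (3.66-fold and 3.72-fold). Id2 was at 0.15 and 0.28 times the level of other cells and was called lower with the co-receptor Tgfbr3.

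Matrix genes were abundant in the mural cells, but few were called higher than in other nerve cells. In the basement membrane list 1 of 14 genes was called higher (6.46% of all genes), the adhesion protein Vtn (3.37-fold and 4.65-fold). In the same list 4 of 20 were called lower (4.31% of all genes), namely Col15a1, Lama2, Hspg2 and Fbln5. Collagen IV came close, with Col4a1 at 2206 and 2216 CPM (2.86-fold and 2.67-fold) and Col4a2 at 1640 and 1832 CPM (2.88-fold and 2.62-fold). Sparc, a collagen-binding protein, reached 11502 and 8356 CPM, at 0.87 and 0.63 times the level of other cells. None of 31 fibrillar and elastic matrix genes was called higher and 3 of the 36 with enough UMIs in other cells were called lower, which without the cells of mixed markers became 11. Col1a1 showed how far those cells mattered, since it stood at 5529 CPM in the FACS and 1046 CPM in the bead mural cells and at 645 and 667 CPM without them. Among integrins 3 of 6 were called higher and 4 of 12 lower. Itga1 for collagen and laminin (13.8-fold and 6.32-fold), Itga7 for laminin (6.75-fold and 3.88-fold) and Itga8, with 3 UMIs in other cells of the FACS library (106-fold, 32.0 to 555) and 42.4-fold in the bead library, were higher. Itga6 (0.16 and 0.13 times), Itga2, Itgb3 and Itgb8 were lower. Of the genes for adhesion between vessel cells 2 of 7 were called higher and 4 of 15 lower (Cdh5, Gja1, Jam2 and Ncam1). The connexins Gjc1 (7.85-fold and 4.23-fold) and Gja4 (6.55-fold and 3.85-fold) were the ones called higher.

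**Figure D2:**
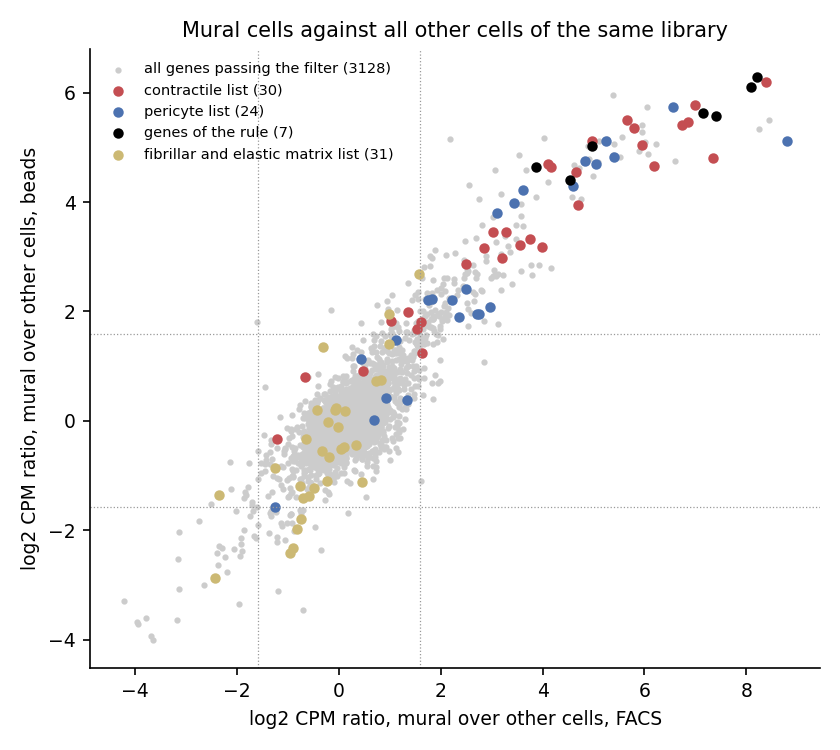
Ratio of CPM in mural cells to CPM in all other cells of the same library, log2, in the FACS (x axis) and bead (y axis) libraries, for the 3128 genes that passed the filter. Dotted lines mark 3-fold. Contractile and pericyte genes and the 7 genes of the rule lie toward the upper right, with Cox4i2 at 8.79 and Lmod1 at 8.38 in the FACS library. Fibrillar and elastic matrix genes lie around and below 0.

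Outside all lists, the genes with the largest of the lower of the 2 ratios included membrane proteins and a receptor of the olfactory family. The collectin Colec11 was 66.0-fold and 53.2-fold above other cells. The membrane proteins Lrrc15 (41.5-fold and 62.4-fold), Tnmd (62.2-fold and 38.6-fold) and Parm1 (47.2-fold and 36.4-fold) and the potassium channel Kcnk3 (42.3-fold and 33.4-fold) were also among these genes. Mir143hg, the host transcript of a microRNA pair known from smooth muscle, was 59.5-fold and 30.4-fold higher, and Mrvi1, a substrate of the kinase encoded by Prkg1, 38.7-fold and 35.6-fold. The olfactory receptor gene Olfr78 gave 24 and 64 UMIs and a ratio of 348 (56.8 to 14325) against 1 UMI in other FACS cells, and of 45.2 in the bead library. The gene of the highest CPM in both libraries pooled was Actb, followed by Sparc, Rgs5, Igfbp7, Gnas and Acta2. Igfbp7 stood at 6126 and 7519 CPM, 3.21-fold and 3.76-fold above other cells.

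Endothelial cells are the neighbours of mural cells and share the vessel wall with them. Endothelial cells for comparison had at least 4 UMIs of 8 endothelial genes and none of Rgs5, Pdgfra, Sox10 and Ptprc. Against 132 FACS and 370 bead cells of this kind, with median depths of 2363 and 1602 UMIs, 287 of 3128 genes were called higher in the mural cells (9.18%), with 21 of 24 pericyte and 18 of 30 contractile genes. Pdgfrb was 42.7-fold (14.2 to 210) and 226-fold (39.9 to 8988) higher, with 3 and 1 UMIs in endothelial cells, and Cspg4, not called against all cells, was 18.7-fold (4.78 to 161) and 12.7-fold. Genes of the PDGF, angiopoietin and Notch pathways were divided between mural and endothelial cells. Pdgfa was 20.4-fold and 16.8-fold higher in mural cells, while Pdgfb was at 0.092 (0.018 to 0.29) and 0.12 times the endothelial level. Angpt1 was at least 19.3-fold higher in the FACS library and 16.4-fold (5.13 to 84.1) in the bead library, while Tek was at 0.019 (0.00048 to 0.11) and 0.032 times. Heyl was at least 21.9-fold and at least 26.5-fold higher, while its relative Hey1 was at 0.20 and 0.14 times. In the Notch list Heyl was the only 1 of 5 genes called higher (9.18% of all genes), and 5 of 11 were called lower (9.33% of all genes). Nrarp and Hes1, called higher against all other cells, were not called higher here. Of all genes, 350 of 3751 were called lower (9.33%), with 12 of 13 endothelial markers, some of which had defined the endothelial cells.

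Matrix divided the cells of the vessel wall in another way. Of the 31 fibrillar and elastic matrix genes, 22 were called higher in mural than in endothelial cells (9.18% of all genes), and 13 of 23 without the mural cells of mixed markers. Col3a1 was 5.85-fold and 5.19-fold higher, and without those cells 2.0-fold and 4.19-fold, which ends its call. The collagen IV genes stood at like levels, with Col4a1 at 1.11-fold in both libraries (1.0 to 1.24 and 1.03 to 1.2), and so did Sparc at 1.30-fold and 1.07-fold. Among 13 imprinted growth genes 3 were called higher (9.18% of all genes) and 1 lower (9.33% of all genes), and without those cells 2 higher and 2 lower of 11. Dlk1, a membrane protein of fetal tissues, was 8.20-fold and 25.9-fold higher in mural cells, the long RNA Meg3 9.67-fold and 21.3-fold and the glypican Gpc3 6.06-fold and 9.09-fold. Without the cells of mixed markers Dlk1 was 7.0-fold and 25.8-fold, Meg3 8.55-fold and 21.2-fold and Gpc3 2.25-fold and 7.31-fold higher, and Gpc3 was then not called.

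The mural cells were then divided by the genes of the rule. A contractile subset had at least 2 UMIs of Myh11 and Cnn1 together, and a pericyte subset had none of these and at least 1 of Kcnj8, Abcc9 or Higd1b. The contractile subset held 42 FACS cells (31.8%, 24.0% to 40.5%) and 155 bead cells (46.0%, 40.6% to 51.5%). The pericyte subset held 66 (50%, 41.2% to 58.8%) and 133 (39.5%, 34.2% to 44.9%), and 24 and 49 cells were in neither. Median depths were 2146 and 2263 UMIs in the contractile and pericyte subsets of the FACS library and 1503 and 1133 in the bead library. The division was not clean, since 27 of the 42 FACS cells (64.3%) and 70 of the 155 bead cells (45.2%) of the contractile subset also carried Kcnj8, Abcc9 or Higd1b. The subsets are ranges of a count and not cell types, and 10 FACS and 26 bead cells lay just under the limit with 1 UMI, 13 and 26 just at it with 2.

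Genes outside the division followed it. The CPM of the contractile subset was at least 3-fold that of the pericyte subset in both libraries for 25 of 1000 genes (2.5%), Myh11 and Cnn1 included, and 11 of the 25 contractile genes tested were among them. Acta2 stood at 7595 CPM in the contractile and 700 CPM in the pericyte subset of the FACS library, and at 12508 and 2134 CPM in the bead library, a ratio of 10.9 (9.0 to 13.2) and 5.86 (5.25 to 6.56). Tagln was 14.6-fold and 6.68-fold higher, Mylk 5.57-fold and 4.0-fold and Tpm2 5.49-fold and 4.39-fold. Lmod1, with 2 UMIs in the FACS pericyte subset, was 51.5-fold (13.6 to 436) and 26.5-fold higher. The pericyte subset thus still carried contractile transcripts, at a lower level. Other genes of the contractile subset were Actg2 (30.2-fold and 19.8-fold), the heat shock protein gene Hspb1 (13.0-fold, 3.91 to 68.0, against 3 UMIs, and 5.78-fold), the BMP response gene Id4 (17.5-fold and 11.9-fold) and Inhba (8.88-fold, and 23.8-fold against 1 UMI, 4.01 to 964). The membrane proteins Tnmd (7.64-fold and 10.6-fold) and Parm1 (9.97-fold and 5.32-fold) were also among them.

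In the other direction 16 of 1458 genes were called (1.1%). Steap4 stood at 76.5 CPM in the contractile and 334 CPM in the pericyte subset of the FACS library and at 50.1 and 462 CPM in the bead library, a ratio of 0.23 and 0.11. The globin Cygb was at 0.21 and 0.12 times and the angiotensin receptor Agtr1a at 0.25 and 0.16 times the pericyte level. Without the cells of mixed markers 11 genes were called, 9 of them shared, and Dcn, Mgp, Mest and Sfrp4 were among those lost. Dcn went from 3537 CPM in the pericyte subset of the FACS library to 201 CPM without those cells. Several pericyte genes did not divide the subsets in both libraries. Rgs5 was at 1.27 times the pericyte level in the contractile subset of the FACS library and 0.51 times in the bead library. Cells of the pericyte subset, without Myh11 and Cnn1, had to reach 4 UMIs through the other genes of the rule. The ratios of Rgs5 and Notch3, which belong to the rule, are shaped by this and only describe the division. Pdgfrb was at 0.93 and 0.32 times, Vtn at 0.59 and 0.16 times, and Notch3 at 2.47-fold and 1.08-fold. Ndufa4l2 (0.98 and 0.73 times), Gucy1a3 (1.76-fold and 1.02-fold) and Ednra (0.99 and 0.84 times) stood at like levels in both subsets.

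**Figure D3:**
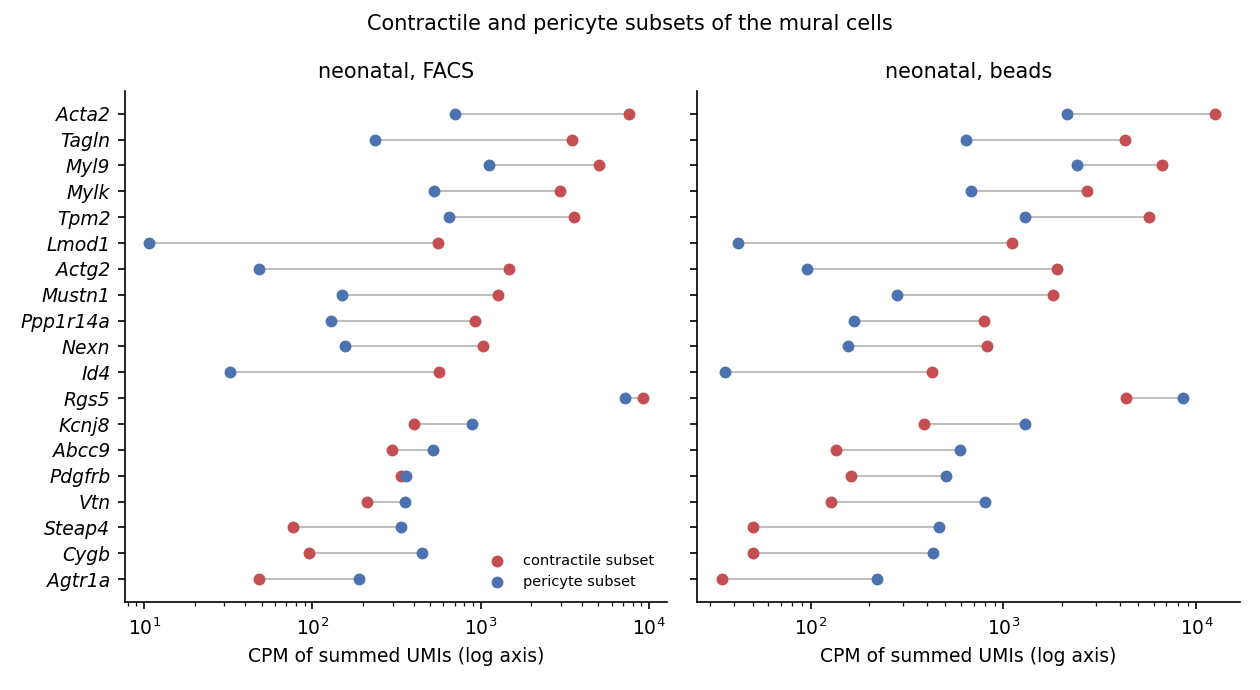
CPM of summed UMIs (x axis, log scale) of 19 genes in the contractile (red) and pericyte (blue) subsets of the mural cells, in the FACS (left) and bead (right) libraries. Grey lines join the 2 subsets. Acta2 was 10.9-fold and 5.86-fold higher in the contractile subset, while Steap4, Cygb and Agtr1a were higher in the pericyte subset of both libraries and Rgs5 pointed in different directions. Rgs5, Kcnj8 and Abcc9 are genes of the rule, and the last 2 also define the pericyte subset.

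Within the mural cells Acta2 was unevenly spread. The 14 FACS cells with the most Acta2, the top 10%, held 53.0% of its UMIs, and the 34 bead cells of the top 10% held 42.5%. Single cells reached 110 and 122 UMIs, and 30 FACS and 130 bead cells had 10 or more. Rgs5 was more even, with 34.1% and 34.6% of its UMIs in the top 10%. Rgs5 helped to select the cells, which favours cells that carry it, and Acta2 did not. The contrast between them is therefore partly set by the rule.

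About 1 in 8 neonatal mural cells carried a transcript of Mki67 or Top2a, which are made by dividing cells. This held for 17 of 132 FACS cells (12.9%, 7.68% to 19.8%) and 39 of 337 bead cells (11.6%, 8.36% to 15.5%). Other cells of the same libraries gave 10.9% (9.58% to 12.2%) and 14.4% (13.5% to 15.4%), and endothelial cells 16.7% and 16.5%, with intervals that overlapped those of the mural cells. Schwann cells gave 13.0% (10.1% to 16.5%) in the FACS and 19.7% (17.5% to 21.9%) in the bead library, where the interval lay above that of the mural cells. By subset the order of the shares differed between the libraries. In the FACS library 3 of 42 contractile (7.14%, 1.5% to 19.5%) and 13 of 66 pericyte cells (19.7%, 10.9% to 31.3%) carried one, and in the bead library 20 of 155 (12.9%) and 15 of 133 (11.3%). No uninjured adult mural cell did, 0 of 175, which allows a share of up to 1.71% at 3 counts of the total (exact 95% upper limit 2.09%), while 14 of 83 did at 3 DPI (16.9%, 9.54% to 26.7%). With every cell thinned to 500 UMIs the shares were 7.38% (FACS), 6.73% (bead), 0% (0 of 169, which allows up to 1.78% at 3 counts, exact 95% upper limit 2.16%) and 7.50% (3 DPI).

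The study drew up a list of ligands of the injured nerve, chosen on its own injured samples. Of these, 51 were found in at least 2% of mural cells in both neonatal libraries, 73 in the FACS and 55 in the bead library, and 25 gave no UMI in either. Without the cells of mixed markers 58 were found in the FACS and 53 in the bead library, and 48 in both. A limit of 2% is 3 cells in the FACS and 7 in the bead library. In the plot of ligand shares the most common ligands were common in Schwann cells as well. Fstl1, a secreted glycoprotein, was found in 85.6% of FACS and 68.2% of bead mural cells, and in 55.4% and 44.2% of Schwann cells. Igf2, an imprinted growth factor, was found in 57.6% and 56.4%, against 20.3% and 9.71%. Nenf (51.5% and 38.3%, against 32.5% and 24.98%) and Rtn4 (46.2% and 32.3%, against 44.6% and 26.9%) lay nearer to the Schwann cells. Metrn and Ptn were found more often in Schwann cells, with Metrn in 9.09% and 10.4% of mural and 60.3% and 42.8% of Schwann cells.

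**Figure D4:**
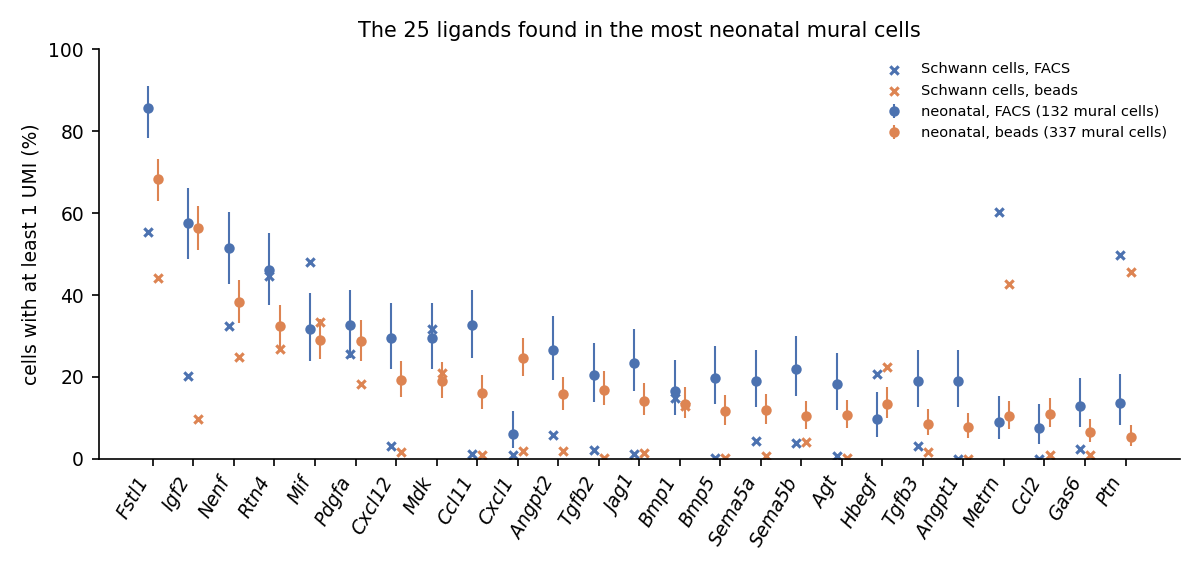
Share of cells with at least 1 UMI (y axis, percent) for the 25 ligands found in the most neonatal mural cells (x axis). Circles with exact 95% intervals are mural cells and crosses are Schwann cells, in blue for the FACS and orange for the bead library. Angpt1, Bmp5, Ccl11 and Cxcl12 stood far above Schwann cells, while Metrn and Ptn stood far below. Ccl11 and Cxcl12 were not called higher than in all other cells.

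Of the 28 ligands that passed the filter on UMIs, 11 were called higher than in other cells (6.46% of all genes), namely Angpt1, Angpt2, Tgfb2, Bmp2, Bmp5, Inhba, Sema5a, Sema5b, Agt, Ccl2 and Ctgf. Angpt1 was found in 18.9% of FACS (12.6% to 26.7%) and 7.72% of bead mural cells (5.10% to 11.1%), against 0 of 453 and 0.0783% of Schwann cells. Agt, the precursor of angiotensin, was found in 18.2% and 10.7% (27.0-fold and 16.6-fold by CPM), against 0.662% and 0.157% of Schwann cells. Bmp5 was found in 19.7% and 11.6%, against 0.221% and 0.157%. The semaphorins Sema5a (18.9% and 11.9%) and Sema5b (21.97% and 10.4%) were 3.68-fold and 8.77-fold, and 5.84-fold and 3.33-fold, above other cells by CPM, and were found in 4.42% and 0.626%, and 3.75% and 4.07%, of Schwann cells. Ccl11, an eosinophil chemokine, was found in 32.6% and 16.02% of mural cells and Cxcl12 in 29.5% and 19.3%, with Schwann cells at 3.09% or less for both. Neither was called higher than in all other cells. Cxcl1, a neutrophil chemokine, differed between the preparations, at 6.06% (2.65% to 11.6%) of FACS and 24.6% (20.1% to 29.6%) of bead mural cells, against 0.883% and 1.80% of Schwann cells. Of 22 early response genes with at least 20 UMIs in mural cells of either library, 20 had the lower CPM in the FACS mural cells, 16 of them by at least 3-fold. Fos stood at 471 and 3601 CPM and Btg2 at 27.7 and 699 CPM in FACS and bead mural cells, and the other 2 genes, Hspa1a (49.2 and 44.7 CPM) and Ctgf (98.5 and 73.1 CPM), had the higher CPM in the FACS library. Their part in the difference was not tested, and the preparation, the days of age and the library cannot be told apart. Of the 94 ligands with enough UMIs in other cells, 14 were called lower (4.31% of all genes), with Metrn and Ptn among them.

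Set against mural cells of the uninjured adult nerve, neonatal mural cells were higher in several imprinted and basement membrane genes and lower in early response genes. Both neonatal ratios share the 1 adult library, and age, animals and library cannot be told apart. Of 3128 genes, 154 were called higher in both neonatal libraries (4.92%), and 149 of 2581 lower (5.77%). With the FACS library alone, an alternative added after seeing the data, the counts were 327 and 296, and with the bead library alone 349 were higher. Of 31 genes of dividing cells, 18 passed the filter, each through its neonatal UMIs, and 0 had enough UMIs in adult cells, so the direction of the 17 called was fixed by the filter. None passed at 500 UMIs per cell or in the contractile subset alone. Mki67 gave 83 and 61 UMIs in FACS and bead mural cells and 0 in adult ones, which makes it at least 22.8-fold and at least 11.1-fold higher. The spread of each list around equal levels is shown in the plot of neonatal against adult ratios.

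**Figure D5:**
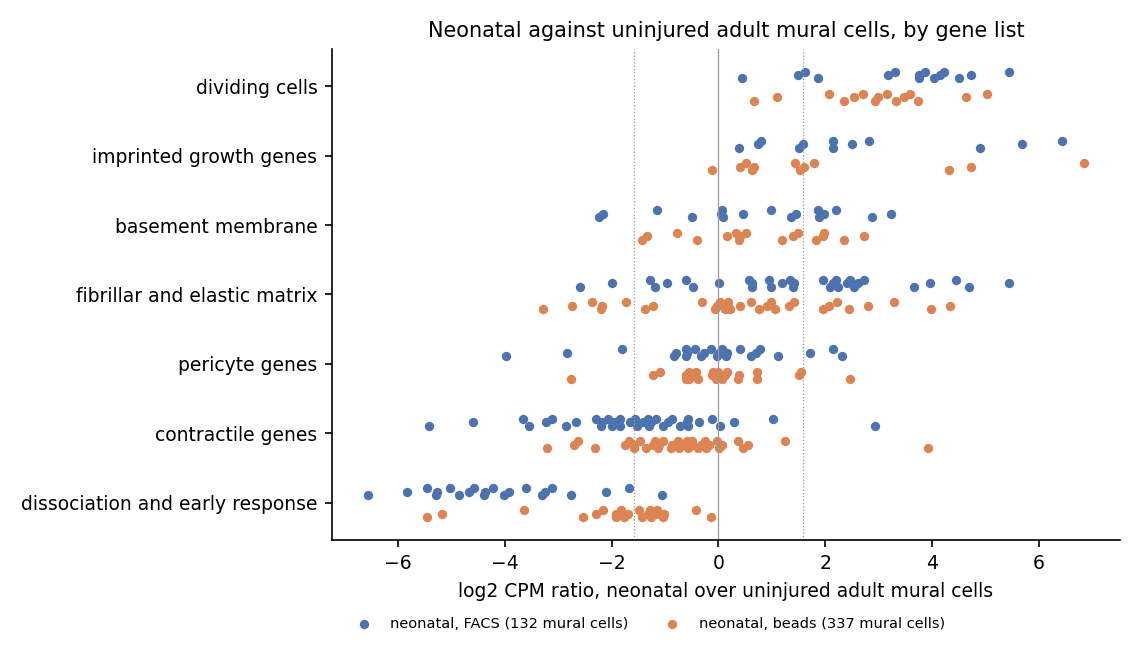
Ratio of CPM in neonatal mural cells to that in uninjured adult mural cells (x axis, log2) for the genes of 7 lists (y axis), in the FACS (blue) and bead (orange) libraries. Each point is a gene with at least 60 UMIs over the 3 libraries, points are shifted up or down only for legibility, a group at 0 UMIs is set to 3 counts, and dotted lines mark 3-fold. Genes of dividing cells, which passed through neonatal UMIs alone, lie to the right, and early response genes lie to the left, with 11 of 22 called lower.

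Of 13 imprinted growth genes, 6 were called higher in neonatal mural cells, against 4.92% of all genes. All 13 passed on neonatal UMIs, and 7 genes of the list had enough adult UMIs to be called lower. H19, Dlk1 and Igf2 had 5, 10 and 17 adult UMIs, under the limit of 20, and could only be called higher. The long RNA H19 stood at 1625 CPM in FACS, 2147 CPM in bead and 18.6 CPM in uninjured adult mural cells, a ratio of 87.2 (37.1 to 270) and 115 (49.2 to 356). Dlk1 was 51.4-fold and 26.6-fold higher and Igf2 29.7-fold and 19.97-fold. Smaller were Cdkn1c, an inhibitor of the cell cycle (4.43-fold and 3.47-fold), and Grb10 (4.4-fold and 3.04-fold). Plagl1 was at least 5.78-fold and at least 4.36-fold higher. The cells of mixed markers held 61.8% of the Igf2 UMIs of the FACS mural cells. Without them Igf2 stood at 843 CPM in FACS, 1187 CPM in bead and 68.1 CPM in adult mural cells, and 5 of 11 imprinted genes were called higher. Against all other neonatal cells of the same library, 0 of 13 imprinted genes were called higher (6.46% of all genes) and 1 of 15 lower (4.31% of all genes).

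In the matrix, 5 of 14 basement membrane genes were called higher (4.92% of all genes), and collagen IV was the most abundant of them. Col4a1 stood at 2206 CPM (FACS), 2216 CPM (bead) and 563 CPM (uninjured adult), or 3.92-fold (3.28 to 4.70) and 3.94-fold (3.32 to 4.70), and Col4a2 was 4.58-fold and 5.12-fold higher. The laminin chain Lamb1 was 9.46-fold and 6.59-fold, Nid2 7.31-fold and 3.89-fold and Agrn 3.67-fold and 3.57-fold higher. Of 31 fibrillar and elastic matrix genes, 7 were called higher. The microfibril gene Mfap2 stood at 680 CPM (FACS), 412 CPM (bead) and 26.1 CPM (adult), or 26.1-fold and 15.8-fold, and Postn was 15.6-fold and 6.98-fold higher (8.0-fold and 7.91-fold without the cells of mixed markers). Fbn2, the fibrillin of developing tissue, was at least 21.7-fold and at least 9.81-fold higher. Mfap2, with 7 adult UMIs, could by the filter only be called higher, and so could Fbn2. Lum and Thbs1 were called lower. Without the cells of mixed markers 6 were called higher and 5 lower, with Mfap2 at 403, 382 and 16.04 CPM in FACS, bead and adult mural cells. The balance of the fibrillar and elastic list turned with the makeup of the cells, at 7 higher and 5 lower in the contractile subset alone and 2 higher and 7 lower in the pericyte subset alone. Of the basement membrane list 2 and 3 were higher and none lower in these subsets.

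The contractile list leaned the other way. Of the 30 listed genes that passed the filter on neonatal UMIs 1 was called higher (4.92% of all genes). Of the 38 with enough adult UMIs 7 were called lower (5.77% of all genes). Actg2 was the gene called higher, at 542 CPM (FACS), 1070 CPM (bead) and 70.8 CPM (adult), or 7.65-fold (4.75 to 13.0) and 15.1-fold (9.58 to 25.3). It was also the only one called higher when contractile subsets alone were compared, while in the pericyte subset alone its log2 ratios were -0.34 and 0.64. Des stood at 277, 260 and 876 CPM (0.32 and 0.30 times), with log2 ratios of -0.93 and -0.59 in the pericyte subset alone. The calcium pump regulator Pln gave 0 UMIs in the FACS library (at most 0.023 times) and was at 0.15 times in the bead library. Pcp4l1 (0.079 and 0.11 times), Sncg (0.041 and 0.16 times) and the potassium channel subunit Kcnmb1 (0.11 and 0.25 times) were lower as well. Acta2 was not called, at 3237 (FACS), 7744 (bead) and 11681 CPM (adult), nor was Myh11 at 809, 1948 and 4972 CPM, although all 4 of these ratios were under 1. The makeup of the mural cells differed between libraries, since the contractile subset was 31.8% and 46.0% of neonatal but 68.0% (60.5% to 74.8%) of uninjured adult mural cells, and the pericyte subset 20% (14.3% to 26.7%) of the latter. Within the contractile or pericyte subset alone, comparisons added after seeing the data, 6 and 1 contractile genes were called lower, and the mean log2 ratio of Palld, called lower here, was 0.32 in the pericyte subset.

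Pericyte genes outside the rule stood close to adult levels, with a median log2 ratio of -0.02. Art3 was called higher (4.4-fold and 5.49-fold) and Rgs4 lower (0.064 and 0.15 times). With every cell at 500 UMIs the log2 ratios of Art3 were 0.64 and 1.02, which ends its call, and in the pericyte subset alone those of Rgs4 were -2.12 and -0.91. Within the rule Kcnj8 was 3.39-fold and 3.25-fold higher, at 745 CPM (FACS), 715 CPM (bead) and 220 CPM (adult). Kcnj8 helped to select the cells, and in the pericyte subset alone its log2 ratios were 0.27 and 0.81, under 3-fold. Among vasoactive receptors Npy1r, the receptor for neuropeptide Y, was called lower (0.082 and 0.24 times), with log2 ratios of -3.40 and -1.49 at 500 UMIs per cell. Hes1 stood at 397, 372 and 1934 CPM and was called lower (0.21 and 0.19 times), as were 11 of 22 early response genes (5.77% of all genes). The Hes1 call ended in the pericyte subset alone (log2 ratios -0.30 and -0.87) and at 500 UMIs per cell (-1.34 and -1.79). The early response genes included the heat shock gene Hspa1a (0.031 and 0.028 times) and Atf3 (0.026 and 0.080 times), which are known to respond to tissue dissociation. Hspa1a has a near-identical copy, Hspa1b, so its counts are uncertain. Their part in the Hes1 difference was not tested. Outside the lists, the lowest ratios included those of Dpep1 (1 UMI in each neonatal library, 0.028, 0.00070 to 0.17, and 0.019, 0.00046 to 0.11) and the crosslinking enzyme Tgm2 (0.041 and 0.034 times). Inmt had 0 UMIs in both neonatal libraries and 45 UMIs in 5 adult mural cells, a ratio of at most 0.055 and 0.036. Timp4, with 2 UMIs in the FACS and 0 in the bead library, was at 0.028 and at most 0.027 times.

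Injured nerve gave a different reference. Against mural cells at 3 DPI, 64 of 3128 genes were called higher in neonatal mural cells (2.05%) and 81 of 2704 lower (3%). Those called higher included 4 of the 5 Schwann list genes that passed the filter, which are genes of another cell type. None of the 18 genes of dividing cells was called in either direction. Of the early response genes, 3 of the 20 with enough 3 DPI UMIs were called lower (3% of all genes) and 0 of 12 higher. Fos stood at 471 CPM in FACS, 3601 CPM in bead and 1317 CPM in 3 DPI mural cells. Imprinted genes were still higher, 6 of 13, with Igf2 at 23.6-fold and 15.8-fold, Dlk1 at 8.24-fold and 4.28-fold and H19 at 3.68-fold and 4.86-fold. H19 thus stood at 442 CPM at 3 DPI against 18.6 CPM in the uninjured nerve, and at 98.5 CPM without the 3 DPI cells of mixed markers. Without such cells in either group H19 was 10.8-fold and 21.1-fold, Dlk1 56.9-fold and 34.3-fold and Igf2 25.7-fold and 36.2-fold above 3 DPI, against 24, 7 and 8 UMIs. Col4a1 was 1.16-fold above 3 DPI in both neonatal libraries and Hes1 1.97-fold and 1.84-fold, and neither was called. Of the fibrillar and elastic matrix genes, 6 of 33 were called lower in neonatal than in 3 DPI mural cells and 2 of 31 higher. The matrix genes Fn1 (0.32 and 0.20 times) and Tnc (0.32 and 0.27 times) were called lower.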

How the data were processed

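The authors deposited UMI counts per gene and cell barcode of 4 Drop-seq libraries of mouse sciatic nerve, made with the Drop-seq alignment steps from a preset number of barcodes per library (2500 FACS, 6200 bead, 2000 uninjured adult, 2500 3 DPI). The submitters' processing notes name mm10, while no source used here gave the aligner version or the annotation. The 4 tables held no column of another sample. Raw counts were used as deposited. Mural cells were selected within filtered barcodes, without removal of doublets, and their UMIs were summed in each library and scaled to CPM. Shares have exact Clopper-Pearson and ratios exact conditional binomial 95% intervals. A group at 0 was set to 3 counts. With 1 library per preparation, no test over samples was made. The mural cells and the gene lists were chosen with earlier results of these data known. Any listed gene could be named, and beyond the lists the 15 genes with the largest of the lower of the 2 ratios against other cells, the 10 highest by CPM without mitochondrial and ribosomal protein genes, and the 10 with the largest such ratio in each direction against adult cells. Genes named by other criteria are said to be. Alternatives changed the gene, mitochondrial, rule, excluding-marker, UMI and fold limits, the depth, the weighting of cells and, with scrublet, the doublets. Calculations were checked on simulated counts and ran in Python 3.11.15 with numpy 2.4.6, scipy 1.17.1, pandas 2.3.3, scanpy 1.11.5 and matplotlib 3.10.9. Some single-gene results are not reported here.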

Additional observations from a re-analysis of the deposited data

Results flagged for a closer look

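For 4 gene comparisons the 2 neonatal libraries lay on opposite sides, at least 2-fold higher in one and at least 2-fold lower in the other, with at least 20 mural UMIs in each. The difference between the libraries was not tested, and preparation, age and library cannot be told apart. The genes were chosen after their values were seen. Cenpe, a motor protein of the dividing cell, was at 3.05 times the level of other cells in the FACS and 0.467 times in the bead mural cells, from 57 UMIs in 11 cells and 22 UMIs in 13 cells. Emid1 was at 0.327 and 3.52 times the level of other cells, from 44 and 76 UMIs. Against endothelial cells, Mgp, an inhibitor of calcification, was at 5.52 times in the FACS and 0.332 times in the bead library, from 73 and 52 UMIs. Against uninjured adult mural cells, the microfibril gene Mfap4 was at 4.25 and 0.428 times, with 144 UMIs in 16 FACS cells and 22 UMIs in 12 bead cells.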

How the results depend on the processing

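Of 159 counts and shares recomputed under alternatives, 127 stayed within 1.5 times the reported count or within its interval and 32 moved. For 43 single genes in a comparison, 430 of 523 values moved by less than their interval, 91 moved further and 2 reversed. The ratio of a single gene does not depend on the UMI or fold limit. Its values under those alternatives stayed the same by construction and are among the 430. No paired analysis was possible because each group was 1 library. With every cell thinned to 500 UMIs, the rule applied anew to all filtered cells took 310, in place of 469. The 310 can include cells first set aside for an excluding marker. The other values at that depth came from the 122 FACS and 312 bead mural cells with at least 500 UMIs before thinning. There, 62 genes were higher and 188 lower than in other cells, 77 higher and 79 lower than in endothelial cells, and 4 pericyte-list genes higher. At that depth the contractile subset was 26.5% and the pericyte subset 34.6% of these mural cells, and 6 and 3 genes were higher in them. Of these mural cells 6.91% carried a UMI of Mki67 or Top2a, 26 ligands were detected, and 34 genes were higher and 66 lower than in adult mural cells. Fewer genes reach 20 UMIs at that depth. With a minimum of 5 UMIs, 359 genes were higher than in other cells, 581 higher and 563 lower than in endothelial cells, and 478 higher and 360 lower than in adult cells. At 2-fold, 923 genes were lower than in other cells, and 401 were higher and 309 lower than in adult cells. With 1 excluding UMI allowed, 25 genes were higher in the pericyte subset. With 1 UMI of Myh11 and Cnn1 as the limit the contractile subset was 49.7% of mural cells, and with a limit of 5% of cells 32 ligands were detected. With 3 DPI in place of uninjured cells 64 genes were higher and 81 lower, and the log2 ratio of Hes1 turned to 0.93. Among alternatives added after seeing the data, 56 genes were higher than in adult cells in the contractile subset alone and 67 lower in the pericyte subset alone, where Palld turned to a log2 ratio of 0.32. With the FACS library alone 327 were higher and 296 lower, and with the bead library alone 349 were higher. Except where a smaller number of UMIs or cells or another limit is part of the alternative itself, the cause was not tested. Leaving out the cells of mixed markers, or the 5% of barcodes with the highest scrublet scores, moved none of the counts and shares among these 159 past these limits. Counts of the matrix lists were not among them. Without the cells of mixed markers, fibrillar and elastic genes lower than in other cells went from 3 to 11, and those higher than in endothelial cells from 22 to 13. Genes of few UMIs in mural cells, and shares of rare ligands, are limited by the depth of 1226 to 2079 UMIs per cell.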
